A study of Mus musculus with 8 samples.

Results

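The 10 genes described here, of fat cell formation and fatty acid handling, were followed across 4 culture media: Pparg, Cebpa, Cebpb, Lpl, Cd36, Fabp4, Plin2, Fasn, Scd1 and Scd2. They were picked by gene symbol, and all 10 were found among the 54532 genes of the count table. All libraries came from wild-type (WT) mouse embryonic fibroblasts, cells grown out of the embryo, after 4 days in 1 of 4 media. MEF medium was the reference. CFAE+8 held CHIR99021, an inhibitor of glycogen synthase kinase, Forskolin, an activator of adenylyl cyclase, AM580, a retinoic acid receptor agonist, the compound labelled EPZ04777, and A-83-01, an inhibitor of the TGF-beta type I receptor. CFAE+8+MSC held the same compounds and MSC2530818, an inhibitor of the Mediator kinases. CFAE+6 held E-616452, another inhibitor of the TGF-beta type I receptor, in place of A-83-01. Each medium had 2 libraries. The labels give no doses, mouse strain or passage. They do not tell whether both libraries of a medium are separate cultures, so a p-value here speaks of library-to-library spread, which may be technical.

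In textbook fat cell formation, C/EBP beta acts early and switches on C/EBP alpha and PPAR gamma, which then hold each other on and drive the genes of the fat cell. Lipoprotein lipase frees fatty acids from circulating lipoproteins, CD36 takes them up, FABP4 carries them inside the cell, and perilipin 2 coats the droplets in which they are stored as triglyceride. Fatty acid synthase makes palmitate, and the stearoyl-CoA desaturases SCD1 and SCD2 put a double bond into saturated chains. Embryonic fibroblasts are known to form fat cells under an adipogenic mix of hormones, and none of the 4 media is labelled as such a mix.

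On build mm10, as the count table gives them, the regulators lie as follows: Pparg at chr6:115360951-115490399 (plus strand), Cebpa at chr7:35119293-35121928 (plus strand) and Cebpb at chr2:167688915-167690418 (plus strand). Of the genes of uptake, binding and storage, Lpl lies at chr8:68880491-68907448 (plus strand), Cd36 at chr5:17781690-17888801 (minus strand), Fabp4 at chr3:10204088-10208576 (minus strand) and Plin2 at chr4:86648386-86670060 (minus strand). Of the synthesis and desaturation genes, Fasn lies at chr11:120805846-120824547 (minus strand), Scd1 at chr19:44394451-44407709 (minus strand) and Scd2 at chr19:44293676-44306864 (plus strand). For 8 of the 10 genes, all but Scd1 and Scd2, the length in the table equals the merged exons of the GENCODE M21 annotation. In that annotation Cebpa, Cebpb and Fabp4 each merge to 1 continuous exon. Merging overlays all transcripts of a gene, so 1 merged exon, as for Fabp4, does not show that its transcripts are unspliced.

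Promoter sequences were at hand for 6 of the 10 genes, in 8 windows of the 250 bases before an annotated start (RefSeq, build GRCm38.p6). The windows of 4 genes are shown, of which Plin2 moved opposite in RNA to the other 3. Those of Pparg and Cebpa, whose mean levels were also lower in each cocktail, are not shown. Each is written 5′ to 3′ on the strand of its gene. The windows lie at chr11:120824548-120824797 (Fasn, minus strand), chr4:86670060-86670309 (Plin2, minus strand), chr5:17835897-17836146 (Cd36, minus strand) and chr2:167688665-167688914 (Cebpb, plus strand). That of Cd36 lies inside the span of the gene in the count table, upstream of a start that is internal to it. Capitals mark exact matches, on either strand, to a set of 7 short motifs: CCAAT (the box of NF-Y), GGGCGG (the box of Sp1), CACGTG (an E-box), TGACG (a part of the cAMP response element), AGGTCA (a nuclear receptor site), TTGCNNAA (C/EBP-type) and TATAAA (the TATA box).
Fasn: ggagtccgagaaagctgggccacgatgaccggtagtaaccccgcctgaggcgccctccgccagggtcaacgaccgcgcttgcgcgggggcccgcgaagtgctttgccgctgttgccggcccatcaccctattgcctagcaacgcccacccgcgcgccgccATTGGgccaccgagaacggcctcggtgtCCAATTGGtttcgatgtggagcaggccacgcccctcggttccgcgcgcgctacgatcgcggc
Plin2: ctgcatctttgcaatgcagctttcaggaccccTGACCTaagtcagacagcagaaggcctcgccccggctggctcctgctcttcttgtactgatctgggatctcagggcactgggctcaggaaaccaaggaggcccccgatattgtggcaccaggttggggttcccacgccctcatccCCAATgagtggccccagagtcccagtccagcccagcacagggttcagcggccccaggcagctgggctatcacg
Cd36: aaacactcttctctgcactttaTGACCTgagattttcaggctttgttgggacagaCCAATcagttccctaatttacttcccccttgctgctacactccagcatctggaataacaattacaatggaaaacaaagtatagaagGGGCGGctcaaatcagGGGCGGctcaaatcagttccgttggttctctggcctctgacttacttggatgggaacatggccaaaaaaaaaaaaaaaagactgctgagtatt
Cebpb: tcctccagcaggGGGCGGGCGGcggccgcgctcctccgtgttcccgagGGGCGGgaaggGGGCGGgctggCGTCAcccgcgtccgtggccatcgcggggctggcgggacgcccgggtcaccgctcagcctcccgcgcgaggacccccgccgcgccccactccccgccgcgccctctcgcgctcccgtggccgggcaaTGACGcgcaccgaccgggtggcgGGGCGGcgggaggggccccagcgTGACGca
The Fasn window held 3 matches to CCAAT, the last pair of them overlapping on opposite strands. The windows of Plin2 and Cd36 each held 1 AGGTCA and 1 CCAAT, and that of Cd36 also held 2 GGGCGG. The Cebpb window held 5 GGGCGG, of which the first pair overlapped, and 3 TGACG. Among 32851 mouse promoter windows of the same length, CCAAT was found in 33.8%, GGGCGG in 32.7%, TGACG in 17.8%, AGGTCA in 14%, TATAAA in 12.4%, TTGCNNAA in 9.56% and CACGTG in 6.02%. Such matches describe the letters and not a bound site, and the same pair of motifs stood before Plin2, which rose, and Cd36, which fell. Among the windows not shown, a Pparg window also held 1 AGGTCA and 1 CCAAT, and another Pparg window held 2 TTGCNNAA.

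The deposited counts summed to between 10958430 and 11913143 per library. Of all genes, 15470 passed the filter on low counts, including each of the 10, and every comparison was tested over them with edgeR's quasi-likelihood test and Benjamini-Hochberg adjustment. A gene is called higher or lower at an adjusted p under 0.05. Levels are CPM, the count scaled to a common library size after TMM scaling, errors of levels are SDs over 2 libraries, and errors of log2 changes are standard errors of the fit. Fibroblast markers were abundant in every medium: 15 of them summed to between 33860 and 34800 CPM in MEF medium and to between 14630 and 16190 CPM in the 3 cocktail media. The 15 did not move as one: 6 rose and 9 fell in CFAE+8 and in CFAE+6, and 6 rose and 8 fell in CFAE+8+MSC. The collagen genes Col1a1 (14726 CPM in MEF medium, then 4058, 4324 and 3506 CPM in the cocktails) and Col1a2 (7595 CPM, then 2020, 1430 and 1414 CPM) fell, while Twist1 rose from 103 CPM to 994, 978 and 1088 CPM and Thy1 rose from 681 CPM to 1100, 1506 and 1535 CPM. Defining fat cell markers were at or near 0 in every medium. Adipoq, Lep, Retn and Cfd had no count in any library, Plin1 had 2 counts in one CFAE+8 library and none elsewhere, and Cidec had 1 count in one MEF medium library and one CFAE+6 library.

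Against MEF medium, 9 of the 10 RNAs fell in CFAE+8, and Plin2 rose. In CFAE+8+MSC 8 fell, Plin2 rose, and Fasn was not called. In CFAE+6 8 fell, Plin2 rose, and Cebpa was not called. The 3 comparisons share the MEF medium libraries and are not independent. The cocktails moved a large part of all genes: 31.3% of the tested genes were called lower and 30.8% higher in CFAE+8, 32.2% and 31.9% in CFAE+8+MSC, and 31.5% and 31.6% in CFAE+6. The median log2 change of the 10 genes was -1.001 for CFAE+8, -1.003 for CFAE+8+MSC and -0.973 for CFAE+6, beside 0.01, 0.01 and 0.02 over all tested genes. In bulk RNA, fewer cells of a type and less RNA per cell cannot be told apart.

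**Figure D1:**
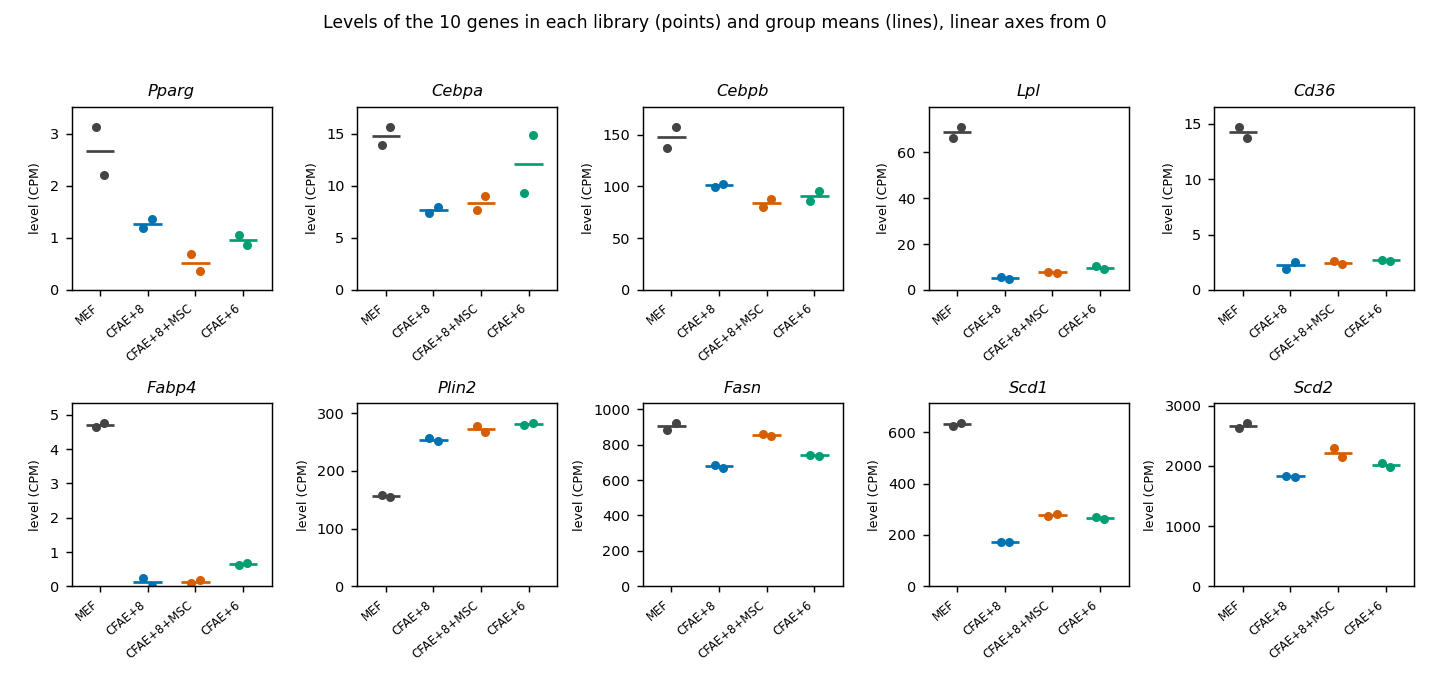
Levels of the 10 genes in CPM (linear axes from 0) in each medium; points are libraries and lines are means of 2 libraries. Plin2 is lowest in MEF medium (155 and 158 CPM), and the other 9 genes have their highest mean there.

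Among the regulators, Pparg, the nuclear receptor that commands fat cell formation, was scarce in every library. It stood at 3.14 and 2.20 CPM in MEF medium, 1.20 and 1.36 in CFAE+8, 0.693 and 0.362 in CFAE+8+MSC, and 1.06 and 0.856 in CFAE+6. Both MEF medium libraries were above all 6 cocktail libraries. These levels rest on totals of 57, 30, 12 and 22 counts per medium, so the errors are wide. Pparg fell by 1.06 ± 0.42 (log2, SE) in CFAE+8 (adjusted p = 0.0302), by 2.33 ± 0.50 in CFAE+8+MSC (adjusted p = 0.000175) and by 1.48 ± 0.45 in CFAE+6 (adjusted p = 0.00486). The call in CFAE+8 did not hold with DESeq2 (adjusted p = 0.127), nor without MEF replicate 1 (adjusted p = 0.246), CFAE+8 replicate 1 (0.141) or CFAE+8 replicate 2 (0.087). The call in CFAE+6 was lost without MEF replicate 1 (adjusted p = 0.0822).

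Cebpa, which works with PPAR gamma to keep the fat cell program on, measured 13.9 and 15.7 CPM in MEF medium. It measured 7.43 and 7.97 CPM in CFAE+8, 7.71 and 9.04 in CFAE+8+MSC, and 9.26 and 14.9 in CFAE+6. The first 2 cocktails lay below MEF medium without overlap, and the CFAE+6 pair spanned the gap, with 1 library among those of MEF medium. Cebpa fell by 0.94 ± 0.19 in CFAE+8 (adjusted p = 9.1e-05) and by 0.82 ± 0.19 in CFAE+8+MSC (adjusted p = 0.000401). In CFAE+6 its log2 change was -0.29 ± 0.18 (adjusted p = 0.163), with a 95% interval from -0.66 to 0.08. That value rests on the spread of the CFAE+6 pair: it was -0.67 without CFAE+6 replicate 2 (adjusted p = 0.0049) and 0.02 without CFAE+6 replicate 1.

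Cebpb, the early regulator, was the most abundant of the 3 per length of transcript, at 98.0 CPM per kb in MEF medium beside 5.60 for Cebpa and 0.903 for Pparg. Its libraries held 137 and 158 CPM in MEF medium, 99.8 and 102 in CFAE+8, 80.5 and 87.5 in CFAE+8+MSC, and 85.8 and 95.4 in CFAE+6. MEF medium was above every cocktail library. Cebpb fell by 0.55 ± 0.07 in CFAE+8 (adjusted p = 5.1e-08), by 0.81 ± 0.07 in CFAE+8+MSC (adjusted p = 2.5e-11) and by 0.70 ± 0.07 in CFAE+6 (adjusted p = 4.6e-10). Its values are uncertain because 20.7% of its exon bases lie on the opposite strand of Tmem189 and the kit used keeps no strand information. Tmem189 itself fell by 0.76 ± 0.10 in CFAE+8, by 0.30 ± 0.09 in CFAE+8+MSC and by 0.36 ± 0.09 in CFAE+6, with 1019 counts over both MEF medium libraries beside 3165 for Cebpb. Without CFAE+8+MSC replicate 1 the fall of Tmem189 there was 0.18 on the log2 scale and was not called (adjusted p = 0.169).

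Of the genes of uptake and binding, Lpl, which encodes lipoprotein lipase, fell to 7.55% of its MEF medium mean in CFAE+8. It stood at 66.3 and 71.2 CPM in MEF medium, 5.55 and 4.83 in CFAE+8, 7.88 and 7.51 in CFAE+8+MSC, and 10.2 and 9.33 in CFAE+6. The 4 media did not overlap, and CFAE+8 was the lowest. The log2 change from MEF medium was -3.73 ± 0.13 in CFAE+8 (adjusted p = 9.7e-21), -3.16 ± 0.12 in CFAE+8+MSC (adjusted p = 1.3e-19) and -2.82 ± 0.12 in CFAE+6 (adjusted p = 7.4e-19).

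Cd36, the fatty acid translocase, measured 14.7 and 13.7 CPM in MEF medium and between 1.88 and 2.73 CPM in the 6 cocktail libraries. It fell by 2.69 ± 0.23 in CFAE+8 (adjusted p = 3.0e-11), by 2.52 ± 0.23 in CFAE+8+MSC (adjusted p = 8.5e-11) and by 2.40 ± 0.23 in CFAE+6 (adjusted p = 1.7e-10). MEF medium stood apart, and the cocktails lay close to each other.

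Fabp4, the fatty acid binding protein of fat cells and macrophages, was counted 49 and 52 times in the MEF medium libraries. It was counted 3 and 0 times in CFAE+8, 1 and 2 times in CFAE+8+MSC, and 7 and 8 times in CFAE+6. Every cocktail library lay below MEF medium, and CFAE+8 and CFAE+8+MSC were at the floor of 3 counts per medium. Per scaled library size, MEF medium held 36.9 times the counts of CFAE+8 (95% counting interval 12.3 to 182) and 35.5 times those of CFAE+8+MSC (11.8 to 175). Fabp4 fell by 2.85 ± 0.46 in CFAE+6 (adjusted p = 3.6e-06), and the test called it lower in CFAE+8 (adjusted p = 2.2e-08) and in CFAE+8+MSC (adjusted p = 2.8e-08) as well. It passed the filter on low counts through the MEF medium libraries alone, so it was tested only because it was high there. Without CFAE+8 replicate 2, which had no count, the fitted log2 change in CFAE+8 was -4.20 in place of -5.21. It was -5.76 in place of -5.15 in CFAE+8+MSC without CFAE+8+MSC replicate 2. These intervals cover counting error only.

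Lpl, Cd36 and Fabp4 are also known from macrophages, and Cd36 and Fabp4 from endothelium, so the markers of both were summed. The 15 macrophage markers summed to 228 and 232 CPM in MEF medium, 50.2 and 50.9 in CFAE+8, 31.2 and 32.0 in CFAE+8+MSC, and 35.2 and 32.9 in CFAE+6. Of the 15, 13 fell in CFAE+8 and in CFAE+8+MSC, and 14 fell in CFAE+6, and none rose. Some, such as Itgam (33 counts in MEF medium, then 6, 0 and 1) and Ptprc (66, then 4, 3 and 2), passed the filter through MEF medium alone. Such genes could hardly have been called higher, and the same holds for Emcn and Plin4, given below. In MEF medium the macrophage sum rested largely on Lyz2, at 124 CPM, which stood at 14.8, 3.61 and 6.91 CPM in the cocktails. Cd68 was not called in CFAE+8, with 284 counts in MEF medium and 282, 246 and 130 in the cocktails. Among the cocktails the macrophage sum was highest in CFAE+8, where Lpl was lowest. Lyz2 and Cd68 were also highest there among the cocktails, so that order rests in part on them. The summed level of 12 endothelial markers moved the other way, from 23.1 and 25.0 CPM in MEF medium to between 63.7 and 71.7 in CFAE+8, between 116 and 119 in CFAE+8+MSC and between 98.7 and 106 in CFAE+6. That sum rested on Esam, which rose from 1.17 CPM in MEF medium to 36.0, 58.9 and 37.2 CPM in the cocktails, and on Kdr, which rose from 13.9 CPM to 20.6, 44.6 and 50.3 CPM. Of the 7 endothelial markers tested, 4 rose and 1 fell in CFAE+8, 3 rose and 1 fell in CFAE+8+MSC, and 4 rose and 2 fell in CFAE+6. The number that fell was 2 in CFAE+8 without MEF replicate 1 or CFAE+8 replicate 1, and 1 in CFAE+6 with DESeq2's Wald test or without MEF replicate 1, MEF replicate 2 or CFAE+6 replicate 2. Emcn, an endothelial sialomucin, fell from 48 counts in MEF medium to 2 in CFAE+8 and to 0 in both other cocktails. Cdh5, another endothelial marker, measured 0.838 CPM in MEF medium and 4.08, 7.44 and 6.25 CPM in CFAE+8, CFAE+8+MSC and CFAE+6. Pecam1, a defining endothelial gene, had between 0 and 8 counts per library. The 18 fat cell markers summed to 26.1 and 27.4 CPM in MEF medium and to between 14.6 and 18.9 CPM in the cocktails, and in each medium 8 of them had no count. Of the 6 tested, Plin4, a droplet coat protein, fell from 8.65 CPM in MEF medium to 0.425, 0.267 and 0.131 CPM, and Slc2a4, the insulin-responsive glucose transporter, fell from 6.06 CPM to 3.45, 1.63 and 1.95 CPM. The other 4 were not called in CFAE+8 or CFAE+8+MSC, and 1 of them, the lipase gene Lipe, rose in CFAE+6, from 8.79 to 12.2 CPM. The call of Lipe was lost with DESeq2's Wald test and without MEF replicate 2 or CFAE+6 replicate 2, and 1 marker in place of 2 was called lower in CFAE+8 with DESeq2's Wald test and without CFAE+8 replicate 1. What part cells of these types had in the changes of Lpl, Cd36 and Fabp4 was not tested.

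Plin2, the perilipin found on lipid droplets of most cell types, was the one gene of the set that rose. It measured 158 and 155 CPM in MEF medium, 257 and 251 in CFAE+8, 278 and 267 in CFAE+8+MSC, and 280 and 283 in CFAE+6. All 6 cocktail libraries were above both MEF medium libraries. The log2 change was 0.70 ± 0.05 in CFAE+8 (adjusted p = 5.4e-13), 0.80 ± 0.05 in CFAE+8+MSC (adjusted p = 2.4e-14) and 0.85 ± 0.05 in CFAE+6 (adjusted p = 5.7e-15), which is 1.63-fold, 1.74-fold and 1.80-fold.

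Fasn, the enzyme that builds palmitate, held 883 and 922 CPM in MEF medium, 685 and 669 in CFAE+8, 860 and 847 in CFAE+8+MSC, and 743 and 738 in CFAE+6. No medium overlapped another, and CFAE+8+MSC lay just under MEF medium. Fasn fell by 0.41 ± 0.04 in CFAE+8 (adjusted p = 2.8e-10) and by 0.29 ± 0.04 in CFAE+6 (adjusted p = 3.4e-07). In CFAE+8+MSC the change was -0.08 ± 0.04 with a 95% interval from -0.16 to 0.00 (adjusted p = 0.0768).

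Both desaturases fell, with the larger log2 fall for Scd1 in each cocktail. Scd1 stood at 625 and 635 CPM in MEF medium, 172 and 172 in CFAE+8, 275 and 280 in CFAE+8+MSC, and 270 and 262 in CFAE+6. Its log2 change was -1.88 ± 0.05 in CFAE+8 (adjusted p = 4.3e-24), -1.19 ± 0.05 in CFAE+8+MSC (adjusted p = 1.7e-19) and -1.24 ± 0.05 in CFAE+6 (adjusted p = 5.1e-20). The 2 other cocktails lay between CFAE+8 and MEF medium, closer to CFAE+8. Scd2, the main desaturase of these cells by level, stood at 2626 and 2711 CPM in MEF medium, 1837 and 1811 in CFAE+8, 2294 and 2145 in CFAE+8+MSC, and 2050 and 1980 in CFAE+6. Its log2 change was -0.55 ± 0.04 in CFAE+8 (adjusted p = 6.6e-14), -0.27 ± 0.04 in CFAE+8+MSC (adjusted p = 2.1e-07) and -0.41 ± 0.04 in CFAE+6 (adjusted p = 5.5e-11). Per length, Scd2 was the most abundant of the 10 genes in MEF medium, with 489 CPM per kb, before Scd1 with 130, Cebpb with 98.0 and Fasn with 82.4.

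Scd1 and Scd2 lie on chromosome 19, 87590 bases apart in the GENCODE M21 annotation. Scd1 made up 19.1% ± 0.17 (SD, n = 2) of the counts of the pair in MEF medium, 8.61% ± 0.085 in CFAE+8, 11.1% ± 0.60 once MSC2530818 was added, and 11.7% ± 0.02 in CFAE+6. The difference between their falls was not tested, and the 95% intervals in CFAE+8 were -1.97 to -1.78 for Scd1 and -0.62 to -0.48 for Scd2. Of the runs of 50 bases in their transcripts, 4.56% of Scd1 and 3.97% of Scd2 also occur in another gene, mostly in each other, Scd3 or Scd4, so a small part of their reads could be assigned to either. Scd3 had between 0 and 4 counts per library and Scd4 between 1 and 4.

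**Figure D2:**
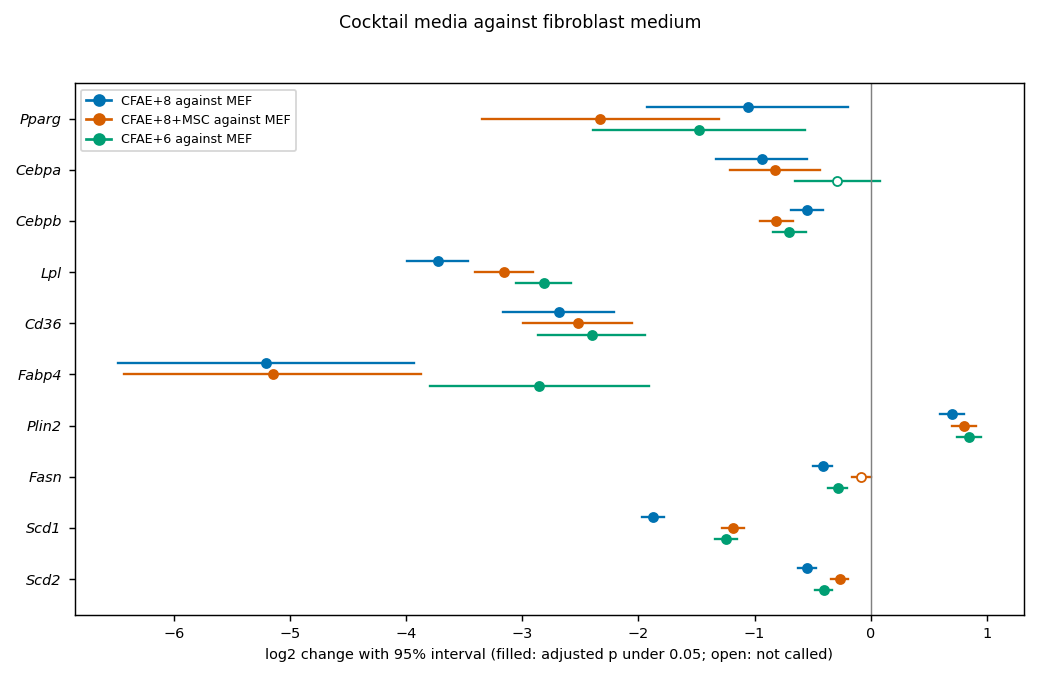
Log2 change of each gene in 3 cocktail media against MEF medium, with 95% intervals (lines) of edgeR's fit; filled points are called at an adjusted p under 0.05. Plin2 is the one gene right of 0, and Fabp4, Lpl and Cd36 lie farthest left; the points for Fabp4 in CFAE+8 and CFAE+8+MSC rest on 3 counts per medium.

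Adding MSC2530818 to CFAE+8 was followed by higher RNA of both desaturases, Fasn and Lpl. These 4 of the 10 genes were called higher, Cebpb was called lower, and 5 were not called. Of all tested genes 15.6% were called higher and 13.8% lower, and the median log2 change was 0.14 over the 10 genes and -0.004 over all tested genes. Scd1 rose by 0.69 ± 0.05 (1.61-fold, adjusted p = 1.7e-12), Fasn by 0.33 ± 0.04 (adjusted p = 1.1e-07) and Scd2 by 0.28 ± 0.04 (adjusted p = 3.5e-07). The libraries of each of the 3 did not overlap between the media. Lpl rose by 0.57 ± 0.17 (adjusted p = 0.0138), a call lost without CFAE+8 replicate 2 (adjusted p = 0.124) or CFAE+8+MSC replicate 1 (adjusted p = 0.0764). Cebpb fell by 0.27 ± 0.07 (adjusted p = 0.00509), a call lost without the same libraries (adjusted p = 0.0506 and 0.0912), while Tmem189, which shares bases with it, rose by 0.47 ± 0.10.

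For the genes not called between these media the intervals were wide where counts were few. The log2 difference was -1.27 for Pparg (95% interval -2.40 to -0.13, adjusted p = 0.0875), 0.12 for Cebpa (-0.30 to 0.54), 0.16 for Cd36 (-0.45 to 0.78) and 0.10 for Plin2 (-0.001 to 0.20, adjusted p = 0.133). Fabp4 was at the floor in both media, and no fold is given.

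CFAE+6 and CFAE+8 differ by their inhibitor of the TGF-beta type I receptor. With E-616452, 6 of the 10 genes were higher than with A-83-01, none was called lower and 4 were not called. Of all tested genes 14.3% were called higher and 12.3% lower, and the median log2 change was 0.22 over the 10 genes and 0.001 over all tested genes. Lpl was higher by 0.91 ± 0.17 (1.88-fold, adjusted p = 9.8e-05) and Scd1 by 0.63 ± 0.05 (1.55-fold, adjusted p = 1.8e-11). Both held their calls under each setting tried and without any 1 library. Cebpa (0.65 ± 0.19, adjusted p = 0.0121), Plin2 (0.15 ± 0.05, adjusted p = 0.0241), Scd2 (0.14 ± 0.04, adjusted p = 0.0032) and Fasn (0.13 ± 0.04, adjusted p = 0.0158) were called with smaller margins.

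Those 4 calls each depended on single libraries. Without CFAE+8 replicate 2 the adjusted p was 0.18 for Plin2, 0.0622 for Scd2 and 0.172 for Fasn, and 3 of the 10 genes stayed called higher. Without CFAE+8 replicate 1 it was 0.0871 for Plin2, 0.0635 for Fasn and 0.0768 for Cebpa. Without CFAE+6 replicate 2 it was 0.0947 for Plin2 and 0.451 for Cebpa, and Cebpb, at -0.16 ± 0.07 in the fit of all libraries (adjusted p = 0.107), was then called lower (adjusted p = 0.0355), which is the 1 lower call. DESeq2 did not call Cebpa (adjusted p = 0.0542).

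Fabp4 had 15 counts in CFAE+6 and 3 in CFAE+8, a ratio of 5.10 (95% counting interval 1.44 to 27.5) that was not called (adjusted p = 0.0505) and was called with no filter on low counts (adjusted p = 0.0329). For Pparg the log2 difference was -0.42 (95% interval -1.43 to 0.59) and for Cd36 0.28 (-0.32 to 0.89), so neither was shown to differ or to be alike. As the inhibitors' doses are not given, these are differences between the media as used.

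Between CFAE+8+MSC and CFAE+6, 2 of the 10 genes were called. Fasn, at 853 ± 9.16 CPM beside 741 ± 3.13, was higher in CFAE+8+MSC by 0.20 ± 0.04 (adjusted p = 0.000691), and Scd2 by 0.14 ± 0.04 (adjusted p = 0.0102). None of the 10 was called lower and 8 were not called, where 6.21% of all tested genes were called higher and 4.27% lower. The Scd2 call was lost without CFAE+8+MSC replicate 1 (adjusted p = 0.199) or CFAE+6 replicate 2 (adjusted p = 0.089). At an unadjusted p under 0.05, Lpl (-0.34 ± 0.16), Cebpa (-0.53 ± 0.19) and the sparse Fabp4 (3 counts beside 15) were lower in CFAE+8+MSC. The Cebpa difference was called without CFAE+6 replicate 1 (-0.83, adjusted p = 0.00384) and with no filter on low counts (adjusted p = 0.0471). Scd1 differed by 0.06 (95% interval -0.04 to 0.16), so a difference of the size seen from CFAE+8 lay outside its interval.

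**Figure D3:**
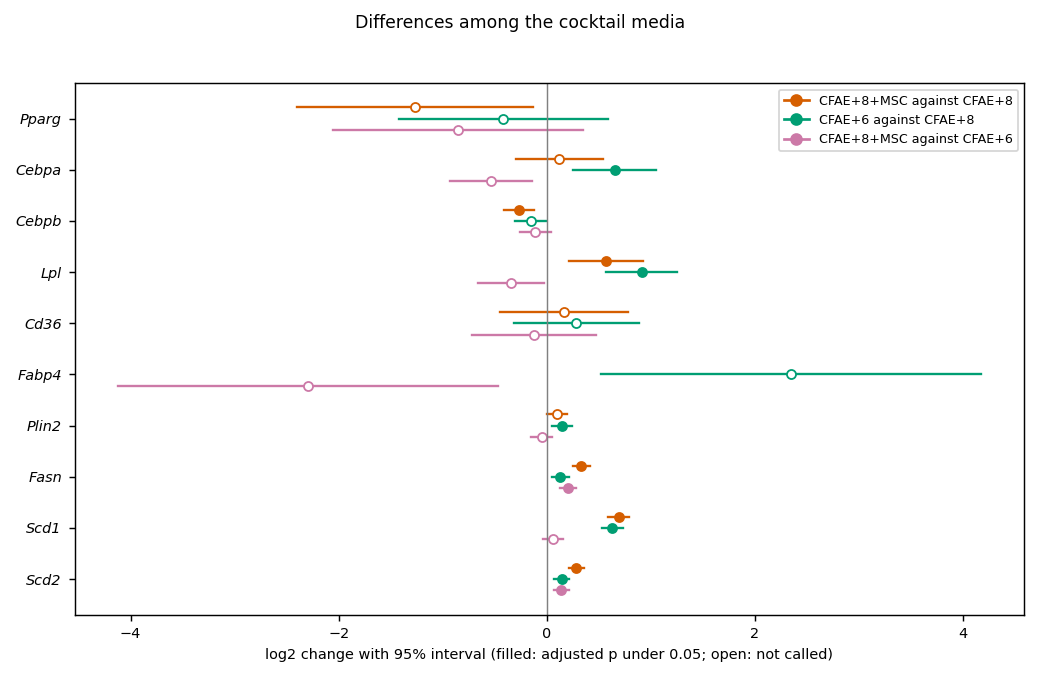
Log2 difference of each gene between pairs of cocktail media, with 95% intervals (lines); filled points are called at an adjusted p under 0.05, and Fabp4 in CFAE+8+MSC against CFAE+8 is left out because both media had 3 counts. Scd1 and Lpl lie right of 0 against CFAE+8 in both other cocktails, and Fasn and Scd2 are the 2 filled points in CFAE+8+MSC against CFAE+6.

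Other genes of the same pathways were counted from lists that leave out the 10. Of 21 tested genes of fatty acid synthesis and desaturation, 15 fell and 3 rose in CFAE+8, 12 fell and 4 rose in CFAE+8+MSC, and 14 fell and 4 rose in CFAE+6. Beside these, 31.3% of all tested genes fell and 30.8% rose in CFAE+8. The shares were 32.2% and 31.9% in CFAE+8+MSC, and 31.5% and 31.6% in CFAE+6. Among those that reached a mean of 5 CPM in a medium compared, the largest falls were of Fads3, a member of the fatty acid desaturase family, from 163 CPM in MEF medium to 25.3, 18.7 and 16.6 CPM, and of Acss2, which makes acetyl-CoA from acetate, from 38.1 to 12.3, 15.8 and 17.0 CPM. Hacd2 and Hacd3, dehydratases of fatty acid elongation, rose in all 3 cocktails, Hacd3 from 65.0 CPM to 160, 154 and 154. Against CFAE+8, 7 rose and 1 fell in CFAE+8+MSC, beside 15.6% and 13.8% of all tested genes. Among those that rose was Me1, a source of NADPH, from 124 to 181 CPM (log2 change 0.54 ± 0.06). Me1 also rose by 0.54 ± 0.06 in CFAE+6.

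Srebf1, which encodes the sterol-responsive activator of Fasn and Scd1, was looked up after the values of its targets were seen. It measured 178 and 175 CPM in MEF medium, 152 and 154 in CFAE+8, 140 and 133 in CFAE+8+MSC, and 129 and 131 in CFAE+6. It was highest in MEF medium, as Scd1 and Fasn were, and among the cocktails it was highest in CFAE+8, where both were lowest. What part Srebf1 had in the changes of Scd1 and Fasn was not tested. Srebf1 fell against CFAE+8 in CFAE+6 by 0.23 ± 0.06 (adjusted p = 0.00209) and in CFAE+8+MSC by 0.17 ± 0.06 (adjusted p = 0.0241). The latter call was lost with DESeq2 (adjusted p = 0.0798) and without CFAE+8 replicate 1 (0.0997), CFAE+8 replicate 2 (0.154) or CFAE+8+MSC replicate 2 (0.228).

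Of 16 tested genes of fatty acid uptake, binding and activation, 9 fell and 2 rose in CFAE+8, 9 fell and 4 rose in CFAE+8+MSC, and 8 fell and 4 rose in CFAE+6. The shares of all tested genes that fell were 31.3%, 32.2% and 31.5%, and 30.8%, 31.9% and 31.6% rose. Angptl4, which encodes a secreted inhibitor of lipoprotein lipase, moved opposite to Lpl. It rose from 11.3 and 13.1 CPM in MEF medium to 243 and 245 in CFAE+8, 229 and 224 in CFAE+8+MSC, and 218 and 227 in CFAE+6, a log2 change of 4.32 ± 0.08, 4.21 ± 0.08 and 4.19 ± 0.08. Gpihbp1, the endothelial anchor of lipoprotein lipase, had no count in any library. Fabp3, the heart-type binding protein, fell from 29.4 CPM in MEF medium to 4.38, 2.44 and 5.0. Fabp5, the epidermal one, measured 58.85 CPM in MEF medium and 36.6 in CFAE+8. Against CFAE+8 it rose to 62.4 CPM in CFAE+8+MSC (0.77 ± 0.08) and to 76.4 in CFAE+6 (1.06 ± 0.08).

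Of 18 tested genes of triglyceride synthesis and lipid droplets, 9 fell in each cocktail, and 5, 6 and 6 rose in CFAE+8, CFAE+8+MSC and CFAE+6. In the same order, 31.3%, 32.2% and 31.5% of all tested genes fell, and 30.8%, 31.9% and 31.6% rose. Hilpda, an inhibitor of the droplet lipase that sits on droplets as perilipin 2 does, rose from 8.56 CPM in MEF medium to 34.0, 22.2 and 25.6. Plin3, another perilipin gene, went the other way, from 101 CPM in MEF medium to 52.5, 43.0 and 44.2. Lpin1 went from 45.9 CPM to 13.5, 15.1 and 22.2. Mgll, the monoacylglycerol lipase, set CFAE+8 apart. It stood at 46.5 and 49.1 CPM in MEF medium, 5.72 and 6.45 in CFAE+8, 30.1 and 31.1 in CFAE+8+MSC, and 36.8 and 36.9 in CFAE+6. It fell by 2.97 ± 0.12 in CFAE+8 and rose against CFAE+8 by 2.33 ± 0.13 in CFAE+8+MSC and by 2.60 ± 0.12 in CFAE+6.

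Of 19 tested adipogenic transcription factors, 13 fell and 5 rose in CFAE+8, 12 fell and 4 rose in CFAE+8+MSC, and 12 fell and 3 rose in CFAE+6. Ebf1, an early B cell factor that acts upstream of Pparg, fell from 38.8 CPM in MEF medium to 3.66, 5.16 and 4.70. Zfp423, a marker of committed fat cell precursors, rose from 4.80 CPM to 9.79, 15.7 and 15.7. Ppargc1a, a coactivator of PPAR gamma, rose from 1.49 CPM to 5.23, 6.26 and 8.97. Of 16 inhibitors of adipogenesis, 10 fell and 5 rose in CFAE+8, 11 fell and 4 rose in CFAE+8+MSC, and 11 fell and 3 rose in CFAE+6. The number that rose was 2 in CFAE+8 without MEF replicate 2 and 2 in CFAE+8+MSC without CFAE+8+MSC replicate 2. Gata2, which represses Pparg, rose from 11.4 CPM to 38.4, 46.6 and 53.4, while Klf2, another repressor of Pparg, fell from 38.4 CPM to 7.66, 1.01 and 1.13. Of 23 genes of fatty acid oxidation, 8 fell and 6 rose in CFAE+8, 12 fell and 4 rose in CFAE+8+MSC, and 9 fell and 5 rose in CFAE+6. Of all tested genes, 31.3% fell and 30.8% rose in CFAE+8, 32.2% fell and 31.9% rose in CFAE+8+MSC, and 31.5% fell and 31.6% rose in CFAE+6. The number of oxidation genes that fell was 5 in CFAE+8 without MEF replicate 2 or without CFAE+8 replicate 1, and 7 in CFAE+8+MSC with DESeq2's Wald test. In CFAE+8+MSC against CFAE+8, 7 oxidation genes were lower and none was higher by edgeR's test, beside 13.8% and 15.6% of all genes. None was higher at an unadjusted p under 0.05 or by DESeq2 either. With DESeq2's Wald test 4 were lower in place of 7, and the number also depended on single libraries. Over the lists, the median log2 change in CFAE+8 was -0.51 for synthesis, -0.39 for uptake, -0.29 for droplets, -0.51 for transcription factors, -0.66 for inhibitors and -0.17 for oxidation, beside 0.01 for all tested genes.

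**Figure D4:**
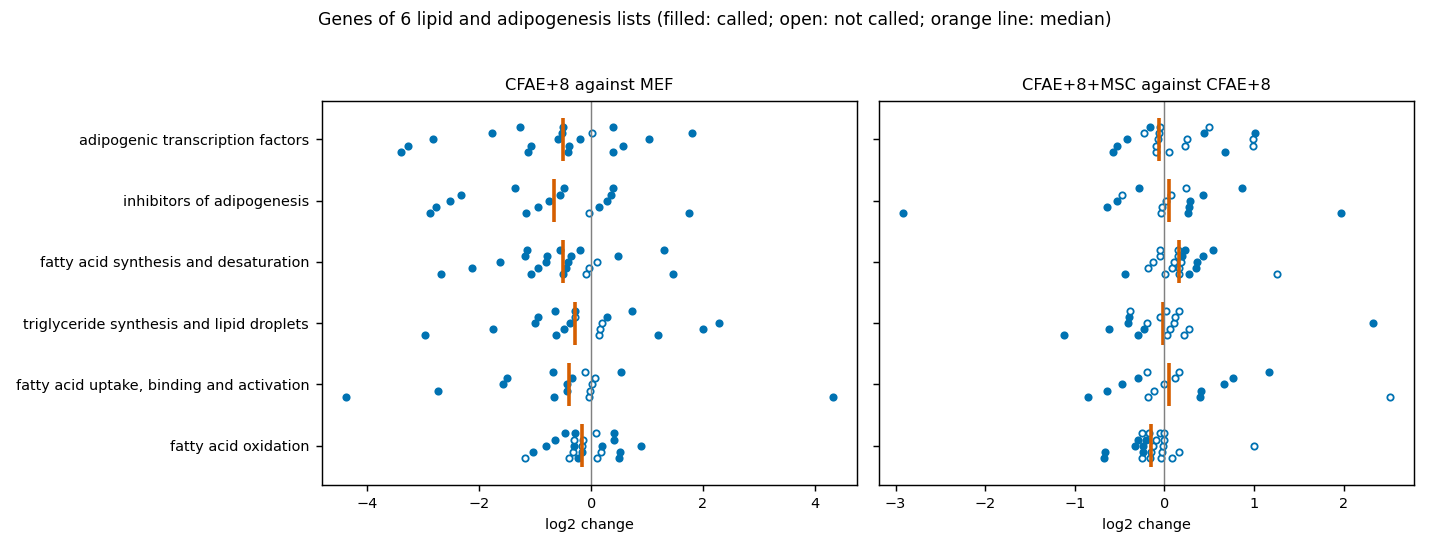
Log2 change of the genes of 6 lists in CFAE+8 against MEF medium (left) and in CFAE+8+MSC against CFAE+8 (right); filled points are called, orange lines are medians over the tested genes, and genes with at most 3 counts in both media are left out. All 6 medians lie left of 0 on the left, and the point farthest right there is Angptl4.

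**Figure D5:**
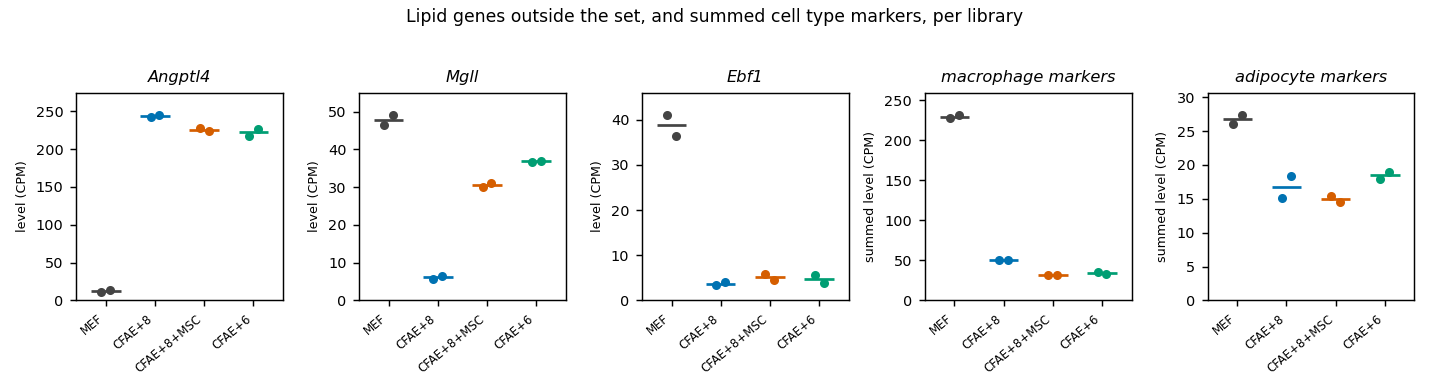
Levels in CPM (linear axes from 0) of Angptl4, Mgll and Ebf1, and summed levels of 15 macrophage and 18 fat cell markers; points are libraries and lines are means of 2 libraries. Angptl4 is lowest and the other 4 are highest in MEF medium, and Mgll is lowest in CFAE+8.

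Genes with the most similar pattern were looked for among 11248 protein-coding genes, by the root mean square difference of log2 CPM centred on its mean over the 8 libraries. Csgalnact1, an enzyme of chondroitin sulfate synthesis, was nearest to Lpl, with a difference of 0.152 and means of 54.3, 4.72, 6.56 and 7.43 CPM in MEF medium, CFAE+8, CFAE+8+MSC and CFAE+6. Fst, which encodes the activin-binding protein follistatin, was nearest to Scd1, with a difference of 0.078 and means of 186, 48.3, 79.9 and 85.3 CPM. Klf3 was nearest to Scd2 (0.032), Clcn5 to Fasn (0.033), Ei24 to Plin2 (0.033), Ddit3 to Cd36 (0.110), Maf1 to Cebpb (0.067), Serf2 to Cebpa (0.161), F11r to Fabp4 (0.199) and Mr1 to Pparg (0.120). Second to Mr1 was Agpat2, an acyltransferase of triglyceride synthesis, with a difference of 0.131 from Pparg. As 0.5 CPM was added before log2, this measure compressed the falls of Fabp4 and Pparg, which lay near that level. From MEF medium to CFAE+8, F11r went from 17.2 to 1.92 CPM and Fabp4 from 4.71 to 0.128 CPM. All these values come from the same 8 libraries.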

How the data were processed

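RNA of wild-type mouse embryonic fibroblasts was sequenced in 8 libraries, 2 for each of 4 media, after 4 days. Per the labels' protocols, RNA was extracted with an EasyPure RNA kit and libraries were made with a NEBNext Ultra RNA kit, which does not mark strand. The authors deposited a table of unnormalized counts for each gene and library. Its tools, per the submitters' processing notes, include featureCounts, Subread and DESeq2 (no versions), on build mm10. The aligner, annotation and strand setting were not given in the sources used here.

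Counts were tested with edgeR 4.0.16 (R 4.3.3) using its quasi-likelihood F test after filterByExpr and TMM scaling, with 1 mean per medium over all 8 libraries, 4 residual degrees of freedom and Benjamini-Hochberg adjustment over 15470 genes. All 6 pairs of media were compared. The tested genes held 99.85% of the counts. Intervals are 95% intervals of the fit. With at most 3 counts in a medium, the count ratio and its exact counting interval are given, and 3 counts per medium were taken as the floor. Replicate libraries differed by more than sampling noise, so none were merged. Of the gene identifiers, 54495 were found in GENCODE M21, and 8 of the 10 genes had the same start and end there. Promoter windows came from RefSeq.

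The members and lists were chosen with earlier results of these data known. Named genes of the pathway lists are the 2 called genes with the largest rise and the 2 with the largest fall per list and comparison. They were limited to genes that reached a mean of 5 CPM in 1 medium. That rule did not cover the marker lists, and the marker genes named were picked outside it. Srebf1, Tmem189, Gpihbp1, Scd3, Scd4, Plin3, Cdh5, Lyz2 and Cd68 were added after values were seen. The 3 genes nearest in pattern were found for each member, with 0.5 CPM added before log2. Alternatives were DESeq2 size factors, upper-quartile scaling, no filter, at least 10 counts in 2 libraries, DESeq2's Wald test (version 1.42.0), a replicate block, only the media compared, and leaving out each library.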

Additional observations from a re-analysis of the deposited data

How the results depend on the processing

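Over 15 alternatives, 863 alternative values of the 10 genes' log2 changes kept direction and call, 20 lost a call, 6 gained one and 4 changed sign, and no call that was made changed sign. The sign changes were of uncalled values when 1 library was left out: Cebpa in CFAE+6 against MEF medium ranged from -0.67 to 0.019, Fabp4 in CFAE+8+MSC against CFAE+8 from -0.94 to 0.51 (-0.56 without CFAE+8+MSC replicate 2), and Cd36 there from -0.035 to 0.40. Among the named genes of the lists, 2009 alternative values kept their call, 76 lost it and none changed sign, and 96 alternative counts of list genes differed by over 1.5 times. Leaving out 1 library, the number of the 10 genes called higher ranged from 3 to 6 in CFAE+6 against CFAE+8 and from 1 to 2 in CFAE+8+MSC against CFAE+6. The number called lower ranged from 0 to 1 in CFAE+8+MSC against CFAE+8, in CFAE+6 against CFAE+8 and in CFAE+8+MSC against CFAE+6. With no filter it was 1 in CFAE+8+MSC against CFAE+6. Over all genes, calls ranged from 2720 to 4154 in CFAE+6 against CFAE+8 (4116 with all libraries) and from 947 to 1531 in CFAE+8+MSC against CFAE+6 (1621 with all libraries), where DESeq2's Wald test made 934. Fewer samples enter the fits that leave out a library; the cause of the other differences was not tested. Same-numbered libraries did not deviate together: the correlation of their deviations from the medium means lay between -0.017 and 0.058 over 6 pairs of media. The replicate block left 9597 calls at 9584 in CFAE+8 against MEF medium and changed no call of the 10 genes. The fit of Fabp4 without CFAE+8 replicate 1 gives no log2 change against CFAE+8, since no count is then left there. Depth limits Pparg, with 12 to 57 counts per medium, and Fabp4, with 3 to 101.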

Other observations

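Among genes outside the set whose pattern over the libraries came nearest to a member, Krt80 (11.7 CPM in MEF medium, then 0.596, 0.932 and 1.13 CPM in CFAE+8, CFAE+8+MSC and CFAE+6) and Cdh18 (7.32 CPM, then 0.213, 0.484 and 0.699 CPM) were highest in MEF medium, as Lpl was, and lowest in CFAE+8. Sulf1, an extracellular sulfatase, was second nearest to Cd36, with means of 368, 62.9, 73.5 and 71.7 CPM. Myrf and Klf6 came after Fst in likeness to Scd1, with means of 28.6, 7.87, 12.04 and 12.07 CPM for Myrf and 339, 104, 150 and 139 CPM for Klf6.

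Cav1, the main protein of caveolae, had a mean of 415 CPM in MEF medium, 138 in CFAE+8, 312 after adding MSC2530818 and 212 in CFAE+6. It rose against CFAE+8 by 1.17 ± 0.05 in CFAE+8+MSC and by 0.61 ± 0.05 in CFAE+6, and was higher in CFAE+8+MSC than in CFAE+6 by 0.56 ± 0.05 (adjusted p = 3.1e-09). Hes1, a Notch target counted among the inhibitors of adipogenesis, fell from 81.3 CPM in MEF medium to 11.1 CPM in CFAE+8. Against CFAE+8 it rose, to 43.5 CPM in CFAE+8+MSC and to 21.3 CPM in CFAE+6, both called lower than MEF medium.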
